A study of Homo sapiens with 15 samples.

Results

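The miR-532, miR-500, miR-362, miR-501, miR-660 and miR-502 microRNA genes lie together in an intron of CLCN5 on the X chromosome. Of the 1619 mature microRNA (miRNA) entries in the count table, 9 were taken by name as members of this cluster: miR-532-5p, miR-532-3p, miR-500a-5p, miR-500a-3p, miR-362-5p, miR-501-5p, miR-501-3p, miR-660-5p and miR-502-3p. All 9 had reads in all 14 libraries and passed the filter on low counts. The list was chosen by name, but with miR-500a-3p already known from these data to be higher in HDM samples than in cell pellets. Comparisons with the pellets, and of HDM with plate cells, are therefore given as a description only. The libraries held small RNA of DiFi, a long-established line of human colorectal cancer cells, from a study of culture conditions for collecting the RNA carriers that these cells release. The groups were 2 cell pellets (HF6 and HF7), 2 unfiltered HDM samples (HF6 and HF7), 2 filtered HDM samples (HF6 and HF7), and cells from 3 numbered plates of each of HF6 and HF7. Single libraries of HDM media and of regular media completed the set, and the sample of HDM media without cells was not analysed here, so no background of medium without cells stands beside the HDM and media levels. The labels spell out neither HDM nor HF, give no treatment, and name 1 cell line for all samples, so every group shares that line.

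MicroRNAs are cut from hairpin transcripts, and either arm of a hairpin, the 5p or the 3p arm, can be loaded into an Argonaute protein to repress mRNAs. Target choice rests mainly on the seed, the short stretch near the 5′ end that pairs with the mRNA. Neighbouring miRNA genes on 1 strand can be cut from a shared primary transcript, and those inside a protein-coding gene often follow its transcription. The host gene CLCN5 encodes an endosomal chloride and proton exchanger. Cells also release miRNAs in vesicles and in smaller particles without a membrane, among them supermeres.

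The mature sequences are shown because the hairpins are related copies and several members differ by only a few bases, which bears on how their reads could be told apart. They are given 5′ to 3′ in hairpin order along the chromosome, as the count table lists them, and capitals mark the seed, bases 2 to 8. The RefSeq miRNA table for GRCh38 holds the same sequence for 8 of the 9.

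hsa-miR-532-5p: cATGCCTTgagtgtaggaccgt

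hsa-miR-532-3p: cCTCCCACacccaaggcttgca

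hsa-miR-500a-5p: tAATCCTTgctacctgggtgaga

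hsa-miR-500a-3p: aTGCACCTgggcaaggattctg

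hsa-miR-362-5p: aATCCTTGgaacctaggtgtgagt

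hsa-miR-501-5p: aATCCTTTgtccctgggtgaga

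hsa-miR-501-3p: aATGCACCcgggcaaggattct

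hsa-miR-660-5p: tACCCATTgcatatcggagttg

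hsa-miR-502-3p: aATGCACCtgggcaaggattca

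Of the members, miR-501-3p and miR-502-3p shared the seed ATGCACC, and the other 7 each had a seed held by no other member. The 3p arm of miR-500a begins 1 base further in, so its seed, TGCACCT, is shifted by 1 base against that pair. Aligned over 21 bases, miR-500a-3p differed from miR-501-3p by the single substitution T8C and from miR-502-3p by the single substitution T21A. Over 22 bases miR-501-3p differed from miR-502-3p by C9T and T22A. Positions are counted from the 5′ end of the first-named miRNA. The 18 bases of miR-500b-5p, another product of the cluster, are contained whole in miR-500a-5p. Of the 126 member values in the table, 4 were not whole numbers, and these belonged to miR-501-3p and miR-502-3p. They were 897.5 and 1962.5 on HF6 plate 2, and 527.5 and 1296.5 in HF6 unfiltered HDM. Every value of miR-500a-3p was whole. By their sequences, reads of miR-500a-3p, miR-501-3p and miR-502-3p may still be shared between entries, and their separate values are uncertain to that extent.

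On GRCh38, the mature miRNAs of the cluster spanned chrX:50003167-50014670, 11504 bases on the plus strand, within CLCN5 at chrX:49922615-50099235 on the same strand. In the GENCODE annotation, 3 of the 9 CLCN5 transcripts spanned every entry and none had an exon overlapping one, so the cluster is intronic in those transcripts. It holds 8 hairpins, in the order MIR532, MIR188, MIR500A, MIR362, MIR501, MIR500B, MIR660 and MIR502, of which 6 yield the 9 members. The remaining 7 entries from these hairpins were followed as companions: miR-188-5p, miR-188-3p, miR-362-3p, miR-500b-5p, miR-500b-3p, miR-502-5p and miR-660-3p.

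Total counts ran from 205747 in the HF7 unfiltered HDM library to 4896931, with 313398 in the HF7 pellet, and these 2 shallow libraries are named wherever a result rests on them. The 6 epithelial miRNAs of the miR-200, miR-192, miR-194 and miR-215 families made up 199550 to 254100 CPM (counts scaled to 1e6 per library) in all 14 libraries. The 3 erythroid markers summed to at most 8.88 CPM and the liver marker miR-122-5p to at most 0.831 CPM. The 4 leukocyte markers summed to 1379 to 4104 CPM, at 2756 to 2795 in pellets, 1379 to 2949 in HDM and 2458 to 4013 in plate cells. The leukocyte intervals overlap between groups. Of the 4 endothelial and stromal markers listed, 2 were found by their exact name. The listed miR-199a-3p stands in a joint entry with miR-199b-3p, which was left out of these sums. The 2 that were summed did not overlap between HDM and cells. They reached 12.9 to 29.7 CPM in HDM, 78.3 to 128 in pellets and 32.9 to 94.6 in plate cells. Of the 2, 1 was at 0 in pellets and HDM. The 3 muscle markers summed to 4.86 to 13.3 CPM in HDM, 24.0 to 95.7 in pellets and 7.17 to 19.9 in plate cells. Their part in the differences of HDM from cells was not tested. In bulk RNA, fewer cells carrying a miRNA and less of it per cell cannot be told apart.

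The cluster was least abundant in pellets and plate 1 cells, intermediate in cells of plates 2 and 3, and most abundant in HDM and the media libraries. Levels are given as CPM after scaling by TMM, which adjusts library totals so that most miRNAs are level between libraries. Summed over the 9 members, the pellets had 3167 (HF6) and 2455 (HF7) CPM, and plate 1 cells had 2517 and 2366. Plates 2 had 4498 and 5079 CPM, and plates 3 had 4658 and 4924. Unfiltered HDM reached 5913 and 5396 CPM, filtered HDM 6652 and 6589, HDM media 5341 and regular media 6599. Pellets and plate 1 cells overlapped, as did plates 2 and 3, while the 4 HDM libraries lay above all 6 plate libraries. As a share of all counts the members made up 0.216% in the HF7 pellet and HF7 plate 1 and 0.747% in HF6 filtered HDM.

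**Figure D1:**
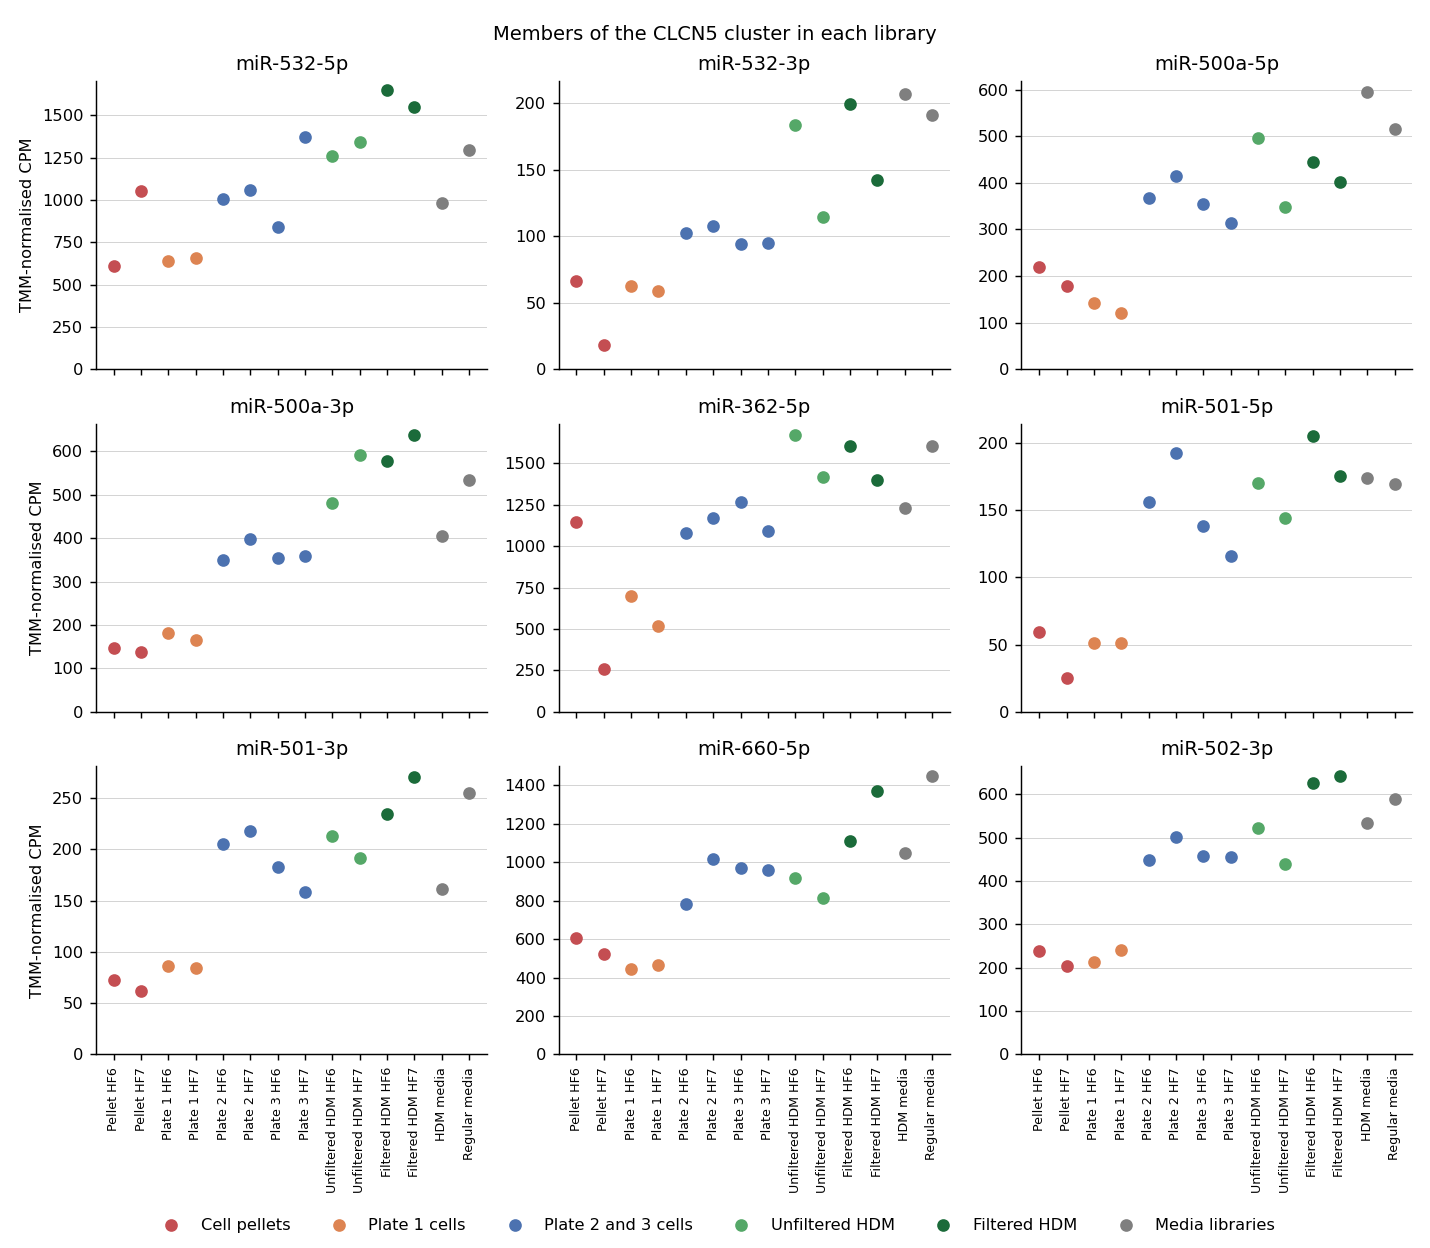
Level of each member in each of the 14 libraries, in TMM-normalised CPM on a linear axis that starts at 0 in every panel; each point is 1 library. Every member is lower in the 2 plate 1 libraries than in the 4 libraries of plates 2 and 3, and miR-362-5p and miR-532-5p differ most, in absolute CPM, between the 2 pellets.

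Read counts of mature miRNAs of nearly equal length can be set side by side without division by length. By the median over the 14 libraries, miR-362-5p led with 1200.4 CPM, ahead of miR-532-5p with 1057 and miR-660-5p with 940.5. Next came miR-502-3p with 456, miR-500a-3p with 379 and miR-500a-5p with 361. The least abundant were miR-501-3p with 187, miR-501-5p with 150 and miR-532-3p with 105 CPM. Neighbours in this order overlapped in their ranges over libraries, for example 257 to 1669 CPM for miR-362-5p and 611 to 1651 for miR-532-5p.

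All 9 members were lower in cells of plate 1 than in cells of plates 2 and 3, with decreases between 1.62-fold and 2.94-fold. The comparison was fitted to the 6 plate libraries with the HF number as a covariate. The labels give no reason for this grouping, which matches the division seen in the data. Its p-values and calls are therefore a description. The products of the miR-500a and miR-501 hairpins fell most and those of miR-532 least.

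miR-501-5p stood at 50.9 (HF6) and 51.3 (HF7) CPM on plate 1, at 156 and 192 on plate 2, and at 138 and 116 on plate 3. miR-500a-5p stood at 141 and 119.9 CPM on plate 1, at 367 and 415 on plate 2, and at 355 and 313 on plate 3. For these 5p arms both plate 1 libraries lay far below the other 4, which showed no split by HF number. Their log2 folds were -1.55 ± 0.26 (SE, the standard error of the fit) and -1.47 ± 0.22. Adjusted p was 0.00018 for miR-501-5p and 8.1e-05 for miR-500a-5p (edgeR quasi-likelihood test, Benjamini-Hochberg adjustment over the 534 miRNAs tested; adjusted p under 0.05 is a call).

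The partner 3p arms followed the same division of libraries. miR-501-3p had 86.4 and 84.6 CPM on plate 1, 206 and 218 on plate 2, and 183 and 158 on plate 3. miR-500a-3p had 181 and 165 CPM on plate 1, 350.4 and 398.5 on plate 2, and 354 and 359.7 on plate 3. Plate 1 libraries did not overlap the others for either arm, and the log2 folds were -1.16 ± 0.23 and -1.07 ± 0.21, with adjusted p of 0.00084 and 0.00066 by the same test. The third near-identical arm, miR-502-3p, had 214 and 242 CPM on plate 1 against 449.6 to 501 on the other 4 plates (log2 fold -1.02 ± 0.20, adjusted p = 0.00073).

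The abundant 5p products fell by smaller or similar factors. miR-660-5p had 443 and 468 CPM on plate 1 against 784 to 1016 on the other plates (log2 fold -1.02 ± 0.19, adjusted p = 0.00048). miR-362-5p had 697 and 518 CPM on plate 1 against 1077 to 1266 elsewhere (log2 fold -0.92 ± 0.19, adjusted p = 0.00094). Both miRNAs were thus separated by plate without overlap, although the 2 plate 1 libraries differed in miR-362-5p.

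The miR-532 hairpin showed the smallest decreases. miR-532-5p had 640.1 and 658 CPM on plate 1, 1006 and 1061.5 on plate 2, and 843 and 1375 on plate 3 (log2 fold -0.70 ± 0.20, adjusted p = 0.010). miR-532-3p had 62.8 and 59.1 CPM on plate 1, 103 and 108 on plate 2, and 93.9 and 94.7 on plate 3 (log2 fold -0.71 ± 0.23, adjusted p = 0.024). For miR-532-5p the HF7 plate 3 value was the highest of the 6, and for miR-532-3p the HF7 plate 2 value.

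**Figure D2:**
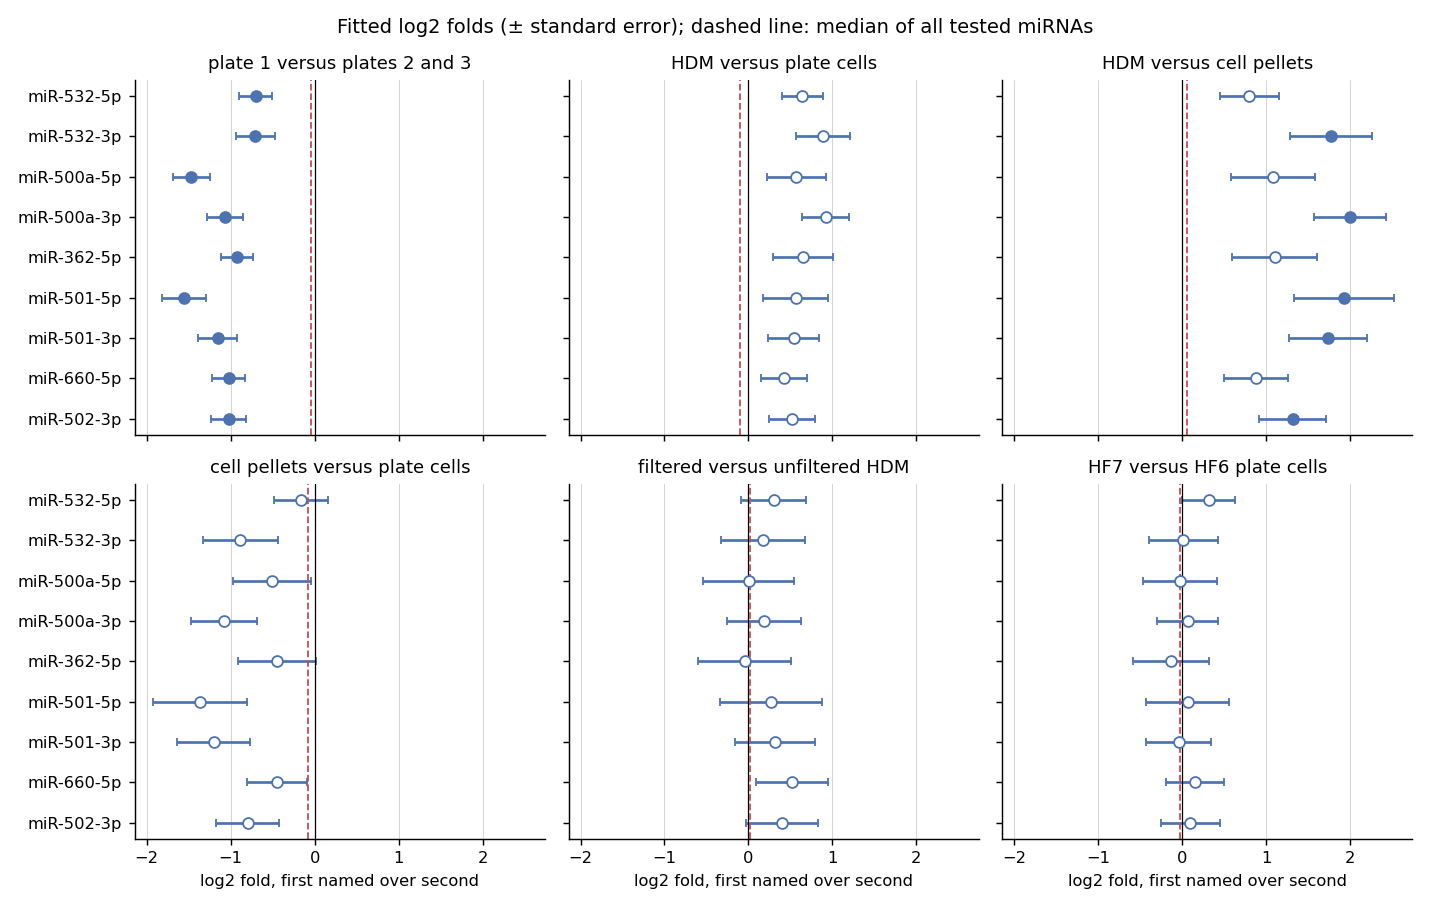
Fitted log2 fold of each member in the 6 comparisons, first-named group over second, with bars of 1 standard error; filled points passed an adjusted p of 0.05 and the dashed line is the median over all tested miRNAs. In the comparison of plate 1 with plates 2 and 3 all 9 points are filled and lie between -1.55 and -0.70. That grouping is not given by the labels, so the fill there is a description. In HDM against plate cells all 9 are above 0 and none is filled. In the comparisons with pellets the fill is not read, since the members were chosen with earlier pellet values known.

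Against this count of 9 of 9 members called lower, 15.0% of the 534 miRNAs tested were called lower (80, with 94 called higher). The libraries did not overlap, plate 1 being lower, for 9 of 9 members and for 23.2% of all miRNAs tested. The median log2 fold was -1.02 for the members and -0.05 for all miRNAs. Scaling by total counts alone moved these medians to -1.23 and -0.25 and the calls over all miRNAs to 114 lower and 66 higher, with all 9 members still called lower. Plate 1 and the other plates had overlapping depths, at 3771619 and 2664161 counts against 1246503 to 4184909. The TMM factors were 0.89 and 0.91 on plate 1 and 0.99 to 1.05 on the others, and what the plate number stands for is not given. No label sets plate 1 against the other plates, and the split matches the division seen in these data. Deviations of HF6 plate 1 correlated at -0.76 and -0.69 with those of HF7 plates 2 and 3. Plates 2 and 3 correlated at 0.41 and 0.47 across the HF numbers. Deviations were taken from the mean of the plates of each HF number. Where same-numbered plates agree, that centring in part sets the signs of these correlations. The p-values make no allowance for picking this split, so they and the calls describe it and do not test it. Same-numbered plates of HF6 and HF7 varied together, so by plate number this is 1 plate against 2. The p-values treat the 2 plate 1 libraries as separate and do not measure the spread between plates.

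Leaving out either plate 1 library leaves plate 1 as a single library whose spread is taken from the other plates. Without the HF7 library the calls of miR-532-5p, miR-532-3p and miR-362-5p were lost. Without the HF6 library that of miR-532-3p was lost. The range of calls over all miRNAs with 1 library left out is given with the alternatives below. Every member kept a negative log2 fold in all alternatives, miR-532-5p coming nearest to no change (-0.99 to -0.56). A term for a difference in the plate 1 effect between HF6 and HF7 was largest for miR-362-5p, at -0.33 ± 0.38 (log2, adjusted p = 0.98), so no such difference was detectable with these 6 libraries. No label states that replicates came from separate cultures, so every p-value here reflects the spread among these libraries, which may be technical.

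The companion entries of the hairpins mostly moved with the members on plate 1. Of the 7, 5 were called lower, beside 15.0% of the 534 miRNAs tested. They were miR-660-3p (log2 fold -1.72 ± 0.32), miR-500b-5p (-1.43 ± 0.52), miR-502-5p (-1.40 ± 0.27), miR-188-5p (-0.95 ± 0.24) and miR-362-3p (-0.91 ± 0.23), with edgeR adjusted p from 0.00046 to 0.0397. The call of miR-500b-5p rests on few reads, with 4 (HF6) and 9 (HF7) counts on plate 1. Its whole sequence lies within miR-500a-5p, so its reads may be shared with that member. The likewise scarce arms miR-188-3p and miR-500b-3p, at log2 folds of -0.65 ± 0.50 and 0.77 ± 0.58, were not called. miR-500b-3p had at most 7.38 CPM in any library, so its direction was not resolved at this depth.

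The HDM libraries had more of every member than plate cells had on average, but no member passed the threshold. The fit joined the 12 replicated libraries in 5 groups, so that spread within every group, the plates included, entered the p-values. The HDM libraries here are those in which miR-500a-3p was already known to be high, so its values are a description with no p. In log2 CPM over the 14 libraries, the other members correlated with miR-500a-3p at 0.809 (miR-362-5p) to 0.962 (miR-501-3p). Their p-values and calls are thus not independent of that knowledge and are likewise a description. None of the other members was called in edgeR. Of these, miR-532-5p and miR-532-3p had an unadjusted p under 0.05, as had 26.7% of all miRNAs (143 of 535). DESeq2 called miR-532-3p of these and 75 of all miRNAs. Over all 535 miRNAs tested, 3.55% were called higher in HDM (19, with 31 called lower; 41 and 25 when only total counts were used for scaling).

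The largest log2 folds were those of the 3p arms of miR-500a and miR-532. miR-500a-3p had 481 (HF6) and 591 (HF7) CPM in unfiltered HDM and 577 and 638 in filtered HDM, against 165 to 398.5 in plate cells with a median of 352. All 4 HDM libraries were above all 6 plate libraries, and the log2 fold was 0.92 ± 0.28. miR-532-3p had 184 and 114 CPM in unfiltered HDM and 199.7 and 142 in filtered HDM, against 59.1 to 108 in plate cells with a median of 94.3. Its groups did not overlap either, though HF7 unfiltered HDM was close to the highest plate (log2 fold 0.89 ± 0.32, adjusted p = 0.093).

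The same absence of overlap was seen for miR-362-5p, at 1669 and 1417 CPM in unfiltered and 1602 and 1396 in filtered HDM against 518 to 1266 in plate cells, median 1084. Its log2 fold of 0.65 ± 0.35 had an adjusted p of 0.25. In all, the groups did not overlap, HDM being higher, for 3 of 9 members and for 6.73% of all miRNAs. By total counts miR-501-3p and miR-502-3p joined them, making 5 of 9 members beside 13.5% of all miRNAs. The value of miR-532-5p was 0.64 ± 0.25 (adjusted p = 0.11), with HDM at 1258.5 to 1651 CPM and plate cells at 640.1 to 1375. The overlap there came from HF7 plate 3 alone, the highest of the 6 plates.

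The other 5 members had log2 folds between 0.42 ± 0.27 for miR-660-5p and 0.57 ± 0.35 for miR-500a-5p, with adjusted p from 0.25 to 0.36. On the TMM scale the HDM libraries overlapped the plates in each of them, as with miR-501-5p at 144 to 205 CPM in HDM and 50.9 to 192 in plate cells. The median log2 fold of the 9 members was 0.57, beside -0.09 over all 535 miRNAs. The low plate 1 libraries contributed to these values. With both left out, the members' median fell to 0.27 and miR-500a-3p stood at 0.66 ± 0.18. No other member was then called, and 54 of all miRNAs were called higher. When plate 1 was instead fitted as a group of its own, its difference was removed from the spread. All members but miR-362-5p (edgeR adjusted p = 0.053) then passed, which is likewise a description and no test. Calls higher over all miRNAs rose from 19 to 75.

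Compared with cell pellets, HDM also had more of every member, and here the members were chosen with earlier values in view, so no p is given. miR-500a-3p had 147 (HF6) and 138 (HF7) CPM in pellets, and its log2 fold to the 4 HDM libraries was 1.997 ± 0.43, or 3.99-fold. miR-501-5p had 59.1 and 25.4 CPM in pellets (log2 fold 1.92 ± 0.60), and miR-532-3p had 66.4 and 18.1 (1.77 ± 0.49). All HDM libraries were above both pellets for these miRNAs. The HF7 pellet was below the HF6 pellet in each, except that by total counts it was higher for miR-500a-3p (121 against 106 CPM). The HF7 values rest on few reads, with 38 counts of miR-500a-3p, 5 of miR-532-3p and 7 of miR-501-5p. By total counts the last 2 are 16.0 CPM (95% exact Poisson interval 5.18 to 37.2) and 22.3 CPM (8.98 to 46.0).

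Next in size were miR-501-3p, at 72.2 and 61.6 CPM in pellets (1.74 ± 0.46), and miR-502-3p, at 239 and 203 CPM (1.32 ± 0.40). The smaller differences were 1.10 ± 0.51 for miR-362-5p, 1.08 ± 0.50 for miR-500a-5p, 0.88 ± 0.38 for miR-660-5p and 0.80 ± 0.35 for miR-532-5p. The 2 pellets also differed on abundant products: miR-362-5p had 1146 CPM in the HF6 pellet and 257 in the HF7 pellet, while miR-532-5p had 611 and 1052. Within HF6 the log2 ratio of filtered HDM to pellet was 0.48 for miR-362-5p and 1.43 for miR-532-5p. Within HF7 it was 2.44 and 0.56, so which of these was more enriched in HDM differed between the HF numbers.

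Over all miRNAs, edgeR called 10.3% higher in HDM than in pellets (55, with 71 lower), and calls of members are not given for this contrast. Libraries did not overlap, HDM being higher, for 9 of 9 members and 22.2% of all miRNAs. The members were taken by name, but with miR-500a-3p known to be high in this contrast, so nothing is read from those shares. Without both shallow HF7 libraries the members' median log2 fold was 1.43, beside 1.32 with all libraries. Scaling by total counts moved the median over all miRNAs from 0.05 to 0.59 and the members' median to 1.85, with 105 miRNAs called higher and 43 lower.

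Pellets and plate cells shared the pellets of the previous comparison, and their values are likewise a description. Every member had a negative log2 fold of pellets over plates, from -0.16 ± 0.32 for miR-532-5p to -1.36 ± 0.56 for miR-501-5p, with a median of -0.80 beside -0.08 for all miRNAs. For miR-500a-3p and miR-501-3p both pellets lay below all 6 plates, where 18.3% of miRNAs did so. By total counts miR-532-3p, miR-501-5p and miR-502-3p did too, making 5 of 9 members beside 27.7% of all miRNAs. Calls of members are not given for this contrast. Over all miRNAs, edgeR called 3.93% lower (21, with 23 higher, or 65 and 15 by total counts), and DESeq2 called 47 lower. An unadjusted p under 0.05 in edgeR was seen for 30.8%. Summed over the members, pellets lay near plate 1, at 3167 and 2455 CPM against 2517 and 2366. miR-500a-3p had 147 and 138 CPM in pellets against 181 and 165 on plate 1. Not every member lay near plate 1. miR-362-5p had 1146 CPM in the HF6 pellet and miR-532-5p had 1052 in the HF7 pellet, within the values of plates 2 and 3. With both plate 1 libraries left out, 101 of all miRNAs were called lower. The log2 fold of miR-362-5p turned to 0.17 without the HF7 pellet, and that of miR-532-5p to 0.10 without the HF6 pellet.

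No member differed detectably between filtered and unfiltered HDM. The largest log2 fold of filtered over unfiltered HDM was that of miR-660-5p, at 1111 (HF6) and 1369 (HF7) CPM against 919 and 812 (0.52 ± 0.42, adjusted p = 0.999, edgeR). The lowest was that of miR-362-5p (-0.04 ± 0.56, same adjusted p). Both filtered libraries exceeded both unfiltered ones for 5 of 9 members, a pattern that 23.0% of all miRNAs showed. By total counts 3 members did so (miR-501-3p, miR-660-5p and miR-502-3p) beside 15.7% of all miRNAs, and miR-362-5p was lower in both filtered libraries. In edgeR 0 of 535 miRNAs were called, 10 had an unadjusted p under 0.05 and none of these was a member; DESeq2 also called 0, with 11 under 0.05. The standard errors, 0.39 to 0.61 on the log2 scale, leave room for sizeable differences in either direction.

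Nor was a difference detectable between plate cells of HF7 and HF6. Log2 folds of HF7 over HF6 ran from -0.13 ± 0.45 for miR-362-5p to 0.31 ± 0.31 for miR-532-5p, with a median of 0.06. The 3 plates of each HF number overlapped for all 9 members. Over all miRNAs, HF7 lay above HF6 without overlap for 2.06% and below it for 2.62%. Here edgeR called 0 of 535 miRNAs (7 with an unadjusted p under 0.05, no member among them), and DESeq2 called 0 (3 with an unadjusted p under 0.05).

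The make-up of the cluster varied between libraries, more for some members than for others. Taking the counts of the 9 members as the whole, miR-660-5p stayed between 15.0% and 22.0% and miR-502-3p between 7.54% and 10.2%. miR-532-5p made up 18.1% to 27.9% of the counts outside the HF7 pellet, and 42.8% in that pellet (95% exact binomial interval 39.1 to 46.7). miR-362-5p made up 36.2% in the HF6 pellet (35.2 to 37.2) and 10.5% in the HF7 pellet (8.28 to 13.0). The other 12 libraries had it between 21.2% and 28.2%, so the pellets stood on opposite sides of all others. Among the scarcer products, miR-532-3p ran from 0.739% in the HF7 pellet to 3.88% in HDM media, and miR-501-5p from 1.03% in the HF7 pellet to 3.79% on HF7 plate 2. miR-500a-5p ran from 5.07% on HF7 plate 1 to 11.1% in HDM media. These intervals cover counting error only, since the table carries no molecular identifiers.

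**Figure D3:**
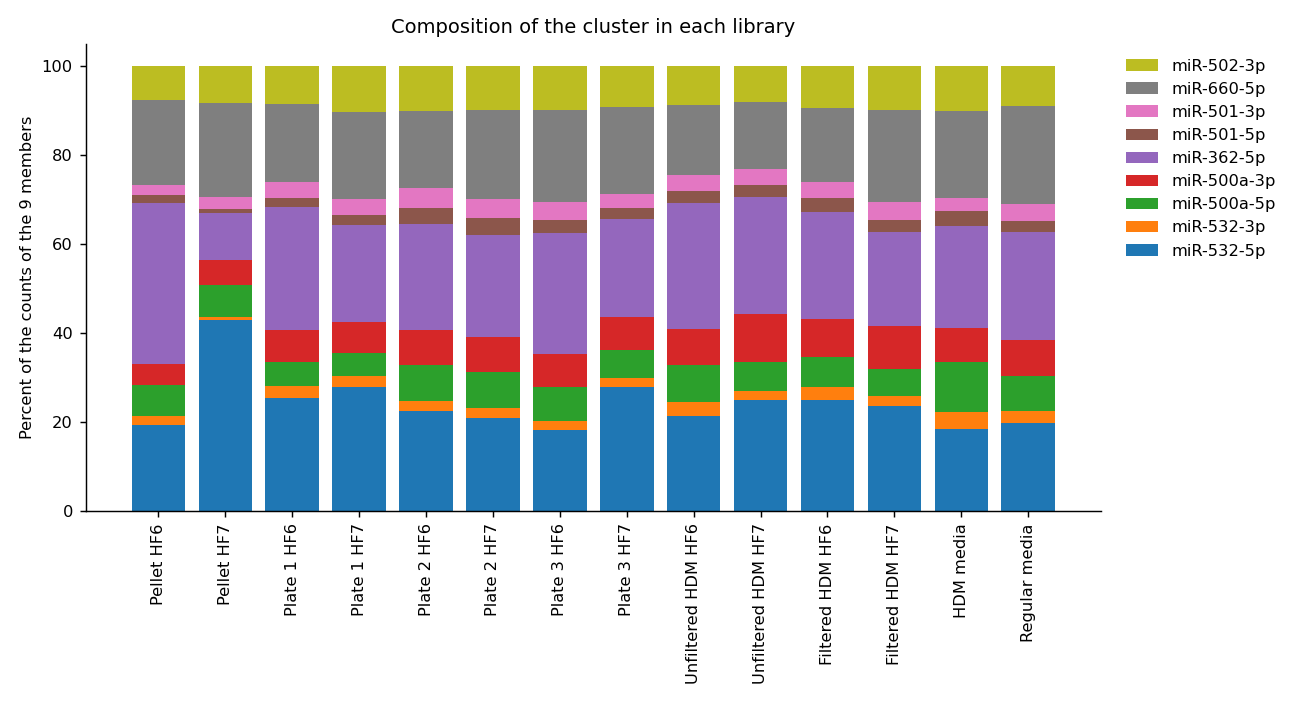
Share of each member in the summed counts of the 9 members, in percent, 1 bar per library. The pellets hold the extremes of miR-362-5p, at 36.2% (HF6) and 10.5% (HF7), and the highest share of miR-532-5p, at 42.8% (HF7); miR-500a-5p is highest in HDM media, at 11.1%.

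Hairpins with both arms among the members differed in which arm was more abundant. In plate cells the geometric mean ratio of 3p to 5p counts was 1.11 for miR-500a, 1.40 for miR-501 and 0.0945 for miR-532. Thus the arms of miR-500a and miR-501 were near balance, while miR-532 gave mainly its 5p arm. In HDM the log2 ratio of 3p to 5p for miR-500a was 0.44 ± 0.36 (SD, n = 4) against 0.15 ± 0.23 (SD, n = 6) in plate cells. The difference of 0.29 holds the 3p arm already known to be high in HDM, so it is a description with no p. The other hairpins were compared in a 2-sided exact permutation test (smallest p possible 0.0095). Its Benjamini-Hochberg adjustment ran over 3 hairpins, miR-500a included. That test exchanged all HDM and plate libraries freely, although HDM libraries share HF numbers and plates varied together by plate number. The smallest possible p therefore overstates the replication.

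For miR-501 the difference between HDM and plates was -0.10 (exact permutation p = 0.49, adjusted 0.49) and for miR-532 it was 0.21 (exact permutation p = 0.31, adjusted 0.47). No shift of arm use was detectable for miR-501 and miR-532. HDM and plate libraries overlapped in all 3 hairpins. Within plates the miR-500a ratio was highest on plate 1, at 0.36 and 0.46 (log2) against -0.07 to 0.20 on the others. The miR-501 ratio was likewise highest there, at 0.76 and 0.72 against 0.18 to 0.45. In the HF6 pellet miR-500a favoured its 5p arm, with a log2 ratio of -0.58. The shallow HF7 pellet, at -0.36, had 38 and 49 counts of the arms, and the 3p share of 43.7% had a 95% exact binomial interval of 33.1 to 54.7.

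**Figure D4:**
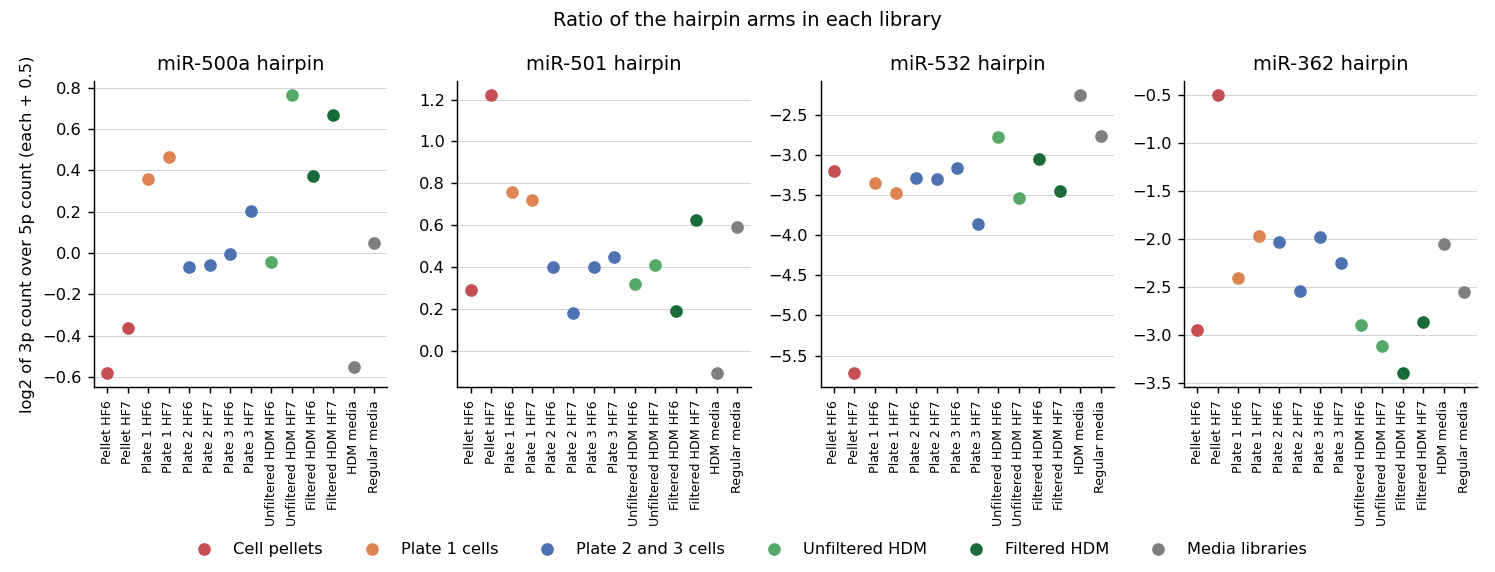
Log2 ratio of 3p to 5p counts, 0.5 added to each, for 4 hairpins in each of the 14 libraries; each point is 1 library and the vertical axes differ between panels and do not start at 0. HDM and plate libraries overlap for miR-500a, miR-501 and miR-532 and are apart for miR-362, whose 3p arm is a companion entry.

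The single libraries of HDM media and regular media allowed no test. By total-count CPM the ratio of HDM media to regular media had a median of 0.896 over the 9 members and ran from 0.738 to 1.35, beside a median of 1.18 over the 357 miRNAs with at least 50 counts in either library. The intervals given here cover counting error only, not the spread between libraries of a medium. The arms of 1 hairpin had ratios on opposite sides of 1: miR-500a-5p had 710.2 CPM in HDM media and 527 in regular media (ratio 1.35, 95% exact interval 1.28 to 1.42), while miR-500a-3p had 484 and 546 (0.887, 0.839 to 0.938). miR-501-5p had a ratio of 1.20 (1.09 to 1.32) and miR-501-3p one of 0.738 (0.678 to 0.804). The 5p arms were thus the higher ones in HDM media for both hairpins, whereas for miR-532 it was the 3p arm, with a ratio of 1.26 (1.16 to 1.38) against 0.886 (0.855 to 0.918) for miR-532-5p. By total counts no member differed by more than 1.5-fold between the 2 libraries, a fold that 24.4% of the 357 miRNAs exceeded. With TMM scaling the ratios were lower, at 0.633 for miR-501-3p, which is past that fold, 1.03 for miR-501-5p, 1.08 for miR-532-3p and 1.16 for miR-500a-5p.

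Across the 14 libraries the members rose and fell largely together. Pearson's r of log2 CPM between members had a median of 0.848 over 36 pairs, with its minimum of 0.453 between miR-532-5p and miR-362-5p. The miRNAs outside the cluster most like its mean profile, among 271 with a mean of at least 20 CPM, were miR-942-5p (r = 0.937), miR-196b-5p (0.929), miR-130b-5p (0.925), miR-1301-3p (0.924) and miR-1296-5p (0.923). Of these miR-196b-5p was the most abundant, at 1367 to 2949.8 CPM, and varied least. The cluster profile was lowest in the shallow HF7 pellet, where 1 count equals 3.63 CPM. The lowest values of the others were 3.63 CPM for miR-942-5p, 7.25 for miR-1296-5p and 32.6 for miR-130b-5p and miR-1301-3p. How far this ranking rests on that library was not tested. The points share their library, depth and scaling, and the 14 libraries include the groups described above, so these values describe a common pattern of libraries.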

How the data were processed

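Small RNA libraries were made with the NEXTflex kit after miRNeasy extraction, per the labels' protocols. The submitters' processing notes name cutadapt 2.10, Bowtie 1.3.1, FastQC and the genome build GRCh38; the rule for reads that fit several miRNAs is not given in the sources used here. The authors deposited expected counts per mature miRNA, not normalized, in 1 table of 1619 entries and 14 libraries; they were rounded to whole counts.

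The 12 replicated libraries were fitted together by group in edgeR 4.0.16 (R 4.3.3; quasi-likelihood, TMM factors, filterByExpr; 535 miRNAs, 7 residual degrees of freedom), the 6 plate libraries separately (534 miRNAs, 3 residual degrees of freedom), and calls were made at an adjusted p under 0.05. The joint fit was tested on simulated data for HDM against plate cells only, with libraries drawn independently. Shared variation by plate number was not simulated, and the separate plate fit was not tested in this way. Arm ratios were compared with scipy 1.17.1. The text names all 9 members, the 7 other entries of the cluster, the 5 most similar miRNAs and cell type markers. Members and lists were chosen with earlier results of these data known. Same-numbered plates of HF6 and HF7 deviated together (correlations 0.903, 0.822 and 0.733), so the labels' plate numbers pair those libraries. Replicate pairs differed by more than counting noise (chi-square per degree of freedom 13.3 to 488). Alternatives were DESeq2 1.42.0, other scalings, filters, blocks, plate 1 handling, summed 3p arms and left-out libraries.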

Additional observations from a re-analysis of the deposited data

Results flagged for a closer look

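One member moved in opposite directions on filtration in the 2 HF numbers. For miR-500a-5p, the log2 ratio of filtered to unfiltered HDM was -0.155 in HF6 (445 against 496 CPM) and 0.213 in HF7 (402 against 347 CPM). Each value rests on 1 library against 1 library, the HF7 unfiltered library being the shallowest with 94 counts of miR-500a-5p, and the difference between HF6 and HF7 was not tested.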

How the results depend on the processing

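Depth limited mainly the HF7 pellet and HF7 unfiltered HDM, where 3 counts equal 9.57 and 14.6 CPM. Counts of members called in HDM against plate cells include miR-500a-3p where it passed, and they are a description and no test. Counts for plate 1 against plates 2 and 3 describe a split that the labels do not give. For plate 1 against plates 2 and 3, members called numbered 9 under DESeq2, other scalings, other filters and no replicate block of HF number, 7 of 7 with the 3p arms of miR-500a, miR-501 and miR-502 summed, and 6 to 9 with 1 library left out (82 to 197 of all miRNAs). For HDM against plate cells, 0 members became 2 with DESeq2 or total-count scaling, 1 with RLE size factors, no filter, the HF replicate block or plate 1 left out, 8 with plate 1 as its own group, and 0 to 1 with 1 library left out. Calls over all miRNAs there rose from 50 to 78 with a filter of 50 counts, 106 without plate 1 and 160 with plate 1 as its own group (16 to 68 with 1 library left out). For HDM against pellets, calls of members are not given, and leaving out both shallow HF7 libraries was an alternative chosen after seeing the data. All miRNAs called there went from 126 to 190, 213 and 73 under plate 1 left out, plate 1 as its own group and no shallow HF7 libraries (68 to 116 with 1 library left out). For pellets against plates, calls of members are likewise not given. The alternatives there were DESeq2, no filter, total counts, no plate 1 and plate 1 as its own group. All miRNAs called there went from 44 to 81, 111, 80, 187 and 169 in that order, and to 22 without the shallow HF7 libraries (12 to 121 with 1 library left out). The log2 fold of miR-362-5p reversed to 0.122 without the shallow HF7 libraries, to 0.167 without the HF7 pellet (-2.002 to 0.167 with 1 library left out), and that of miR-532-5p to 0.0953 without the HF6 pellet (-0.673 to 0.0953).

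Filtered against unfiltered HDM gave 0 members in every alternative, and over all miRNAs 3 without a filter, 2 with plate 1 as its own group and 14 in a fit of those 4 libraries. The log2 fold of miR-362-5p reversed to 0.0873 without HF7 filtered and 0.118 without HF6 unfiltered HDM (-0.146 to 0.118 with 1 library left out). HF7 against HF6 plates gave 0 calls in every alternative, the replicate block of plate number among them (median of the members 0.02). miR-362-5p there reversed to 0.000147 without plate 1, to 0.10 without HF6 plate 3 and to 0.205 without HF7 plate 1 (-0.334 to 0.205 with 1 library left out). The difference in the miR-501 arm ratio reversed to 0.0287 without plate 1. With 1 library left out the arm differences were 0.183 to 0.452 for miR-500a, -0.178 to -0.0329 for miR-501 and 0.0636 to 0.315 for miR-532. Summed 3p against summed 5p arms gave 0.0438, a value that holds miR-500a-3p and is given with no p. The median media ratio moved from 0.896 to 0.768 with TMM scaling. HF-numbered pellets and HDM samples share a number whose meaning the labels do not give. Correlations of their deviations were 0.169, 0.0434 and -0.229. Each rests on 2 libraries per group, a shallow HF7 library among them, so they cannot settle whether same-numbered samples are related. The block on HF number changed no call beside miR-500a-3p in HDM against plates. The causes of these changes were not tested.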

Other observations

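The miR-362 hairpin, singled out after its values were seen and given with no test, had a 5p-richer ratio of arms in HDM than in plate cells. The log2 ratio of 3p to 5p counts ran from -3.40 to -2.87 in the 4 HDM libraries and from -2.54 to -1.97 in the 6 plate libraries, so the groups did not overlap. The HF6 pellet, at -2.95, lay within the HDM values and the HF7 pellet, at -0.50, above all plates. The 2 arms had separate log2 folds of HDM over plate cells, 0.65 ± 0.35 for miR-362-5p and -0.21 ± 0.29 for miR-362-3p (edgeR adjusted p of 0.25 and 0.69). Over the 14 libraries miR-362-3p ranged from 131 CPM on HF6 plate 1 to 321 CPM on HF6 plate 3.

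The miR-502 hairpin favoured its 3p arm in all 14 libraries, with a geometric mean ratio of 3p to 5p of 6.38 in plate cells and 5.57 in HDM. The miR-660 hairpin favoured its 5p arm, with ratios of 0.0237 and 0.0297.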
